A study of Mus musculus with 20 samples.

Results

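The small RNA count table of mouse skin lists 71 entries annotated as piRNA among 2127 entries in all. Every entry of that type was taken, with no choice by level, and together they make up 3.34% of the entries and 0.219% of the counts (209232). The 20 libraries came from skin biopsies of FVB/N mice, 5 in each group. Healthy skin was treated with acetone, and the other 3 groups were treated with DMBA and PMA, a chemical protocol of skin carcinogenesis: hyperplastic skin, papillomas, which are benign, and carcinomas of the cutaneous squamous cell type (cSCC). The labels give no age, dose or treatment time, and do not say whether the 5 samples of a group came from separate mice, so the p-values below measure the spread between these samples only. Library totals ran from 4753061 to 7395047 counts in healthy skin, 5239742 to 10117810 in hyperplastic skin, 1270588 to 3797597 in papillomas and 2028162 to 3915431 in cSCC. As a check of the skin label, the epithelial miRNA miR-205-5p was at 39559 CPM or more in every library, where CPM are counts per 1000000 of the TMM-adjusted library size.

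Piwi-interacting RNAs are small RNAs, somewhat longer than miRNAs, that are bound by PIWI proteins. In mice they are best known from the germ line, where they silence transposons and often begin with uridine. Small nucleolar RNAs (snoRNAs) are longer, stable RNAs that guide the chemical modification of ribosomal and spliceosomal RNA, and shorter pieces of them are found in small RNA libraries. An entry of a count table is a set of coordinates, so a read from either kind of RNA can count towards a piRNA entry if it maps there.

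The piRNA entries were 18 to 38 bases long, with a median of 29, and 56 of the 71 were 26 to 31 bases long. They lie on 21 chromosomes, the mitochondrial one included. The coordinates given here are those of the table, in mouse build mm9. The table names entries by FR numbers only and gives no strand. Sequences can be shown for the 2 mitochondrial entries, whose coordinates are shared with the reference (22 of 22 mitochondrial tRNAs and 2 of 3 mitochondrial rRNA entries of the table have the same start and end there, mt-Rnr2 among them), and for a miRNA that shares its place with a piRNA entry. They are printed because they show which other RNAs the piRNA coordinates fall in. FR168761 covers bases 1283 to 1314 of the 1545 bases of mt-Co1, a subunit of cytochrome c oxidase, and FR178873 covers bases 1317 to 1339 of the 1582 bases of mt-Rnr2, the large mitochondrial ribosomal RNA. Both are read on the strand of the host gene, with the first and last base in capitals. FR393729 overlaps mmu-miR-881-5p, whose mature sequence (RefSeq, GRCm38.p6) is given with its seed, bases 2 to 8, in capitals.
FR168761 (chrM:6610-6641): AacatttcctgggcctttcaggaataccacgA
FR178873 (chrM:2410-2432): AcaattagggtttacgacctcgA
mmu-miR-881-5p: cAGAGAGAuaacagucacaucu
On the host strand both mitochondrial stretches begin and end with A, so that neither begins with T as read here, and the opposite strand of both begins with T. Since the strand of the counted reads is not in the table, the first base of those reads is not known.

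A single entry carried most of the counts. FR283123 (chr16:23109062-23109090) held 144960 counts, which is 69.3% of all piRNA counts, and ranked 119 among all entries of the table. The top 2 entries held 78.4%, the top 3 held 84.2%, the top 6 held 94.8% and the top 10 held 98.1%. The other 61 entries thus shared under 2% of the counts. The median entry had 35 counts over all 20 libraries, and the lowest had 21, which is also the lowest total of the whole table. A total of 9 entries had at least 1000 counts, 9 had 100 to 999, and 53 had fewer than 100. Only 16 of the 71 were detected in all 20 libraries.

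**Figure D1:**
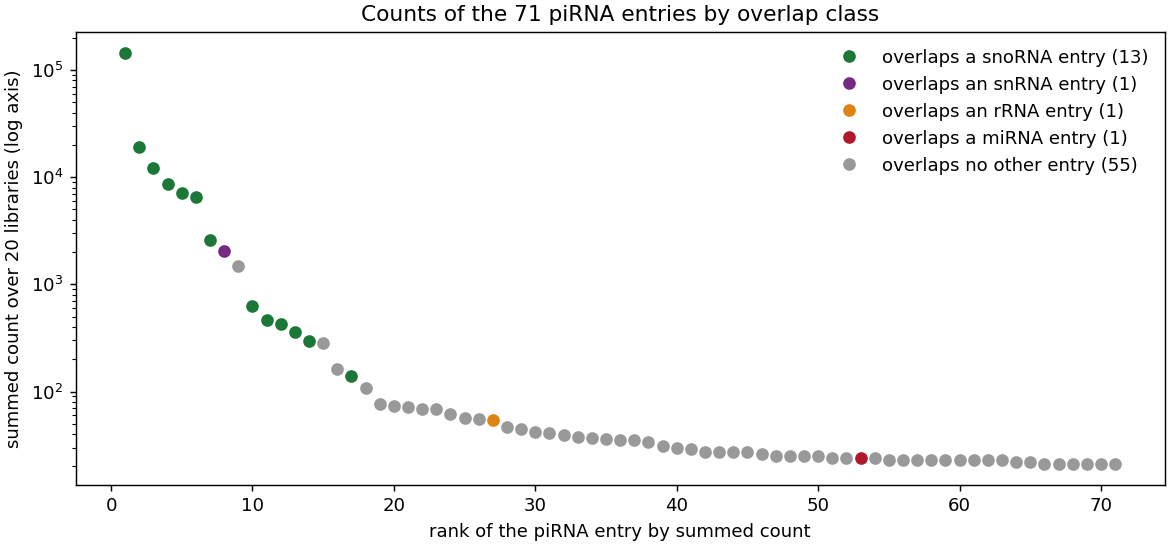
Summed count of each of the 71 piRNA entries over 20 libraries (log axis) against its rank, coloured by the class of entry it overlaps. FR283123 stands at 144960 counts, the first 7 ranks all overlap a snoRNA entry, and 53 entries lie below 100 counts.

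The entries that carried the counts lie on snoRNAs. With at least 1 shared base as the rule, and either strand, 13 piRNA entries overlapped a snoRNA entry of the table, and these 13 held 97.2% of all piRNA counts (203325). None overlapped a tRNA entry, nuclear or mitochondrial, although the 388 nuclear tRNA entries held 30.5% of all counts in the table, against 1.07% in the 353 snoRNA entries. Another 3 overlapped an entry of another class: FR075111 lies in 2 nested snRNA entries, FR178873 in the mitochondrial rRNA and FR393729 on miR-881-5p. The remaining 55 entries overlapped nothing else in the table and held 3766 counts, or 1.80%. Among the 18 entries with at least 100 counts 13 overlapped a snoRNA, and among the 53 below 100 counts none did. If the whole piRNA entry must lie inside the snoRNA, 12 of the 13 remain, the exception being FR077565, which reaches 1 base beyond the end of its snoRNA.

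The overlapping piRNA entries sat at the ends of the snoRNAs. All 13 came within 5 bases of an end of the snoRNA entry, and 6 shared its exact end. FR283123 has 29 bases and covers a stretch near the high-coordinate end of the 69-base FR283278, leaving 4 bases beyond it. FR080648 (chr11:106362305-106362322) and FR077565 (chr11:106362350-106362379) lie at opposite ends of 1 snoRNA entry of 74 bases, FR136942. FR139333 (chr4:130305590-130305617) and FR298990 (chr19:8799064-8799090) end exactly where FR140401 and FR219096 end. FR224734 (chr2:130103752-130103780) begins exactly where FR102267 begins. The main partners were 65 to 238 bases long, and 10 of the 13 overlaps were with entries of 65 to 76 bases. The table gives no gene names for these snoRNA entries. Named snoRNA entries near FR283123 are Gm24201, 1293 bases away, and Snora81, 1666 bases away. Snora81 is a snoRNA that RefSeq places within Eif4a2, a translation initiation factor gene that also holds Snord2.

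**Figure D2:**
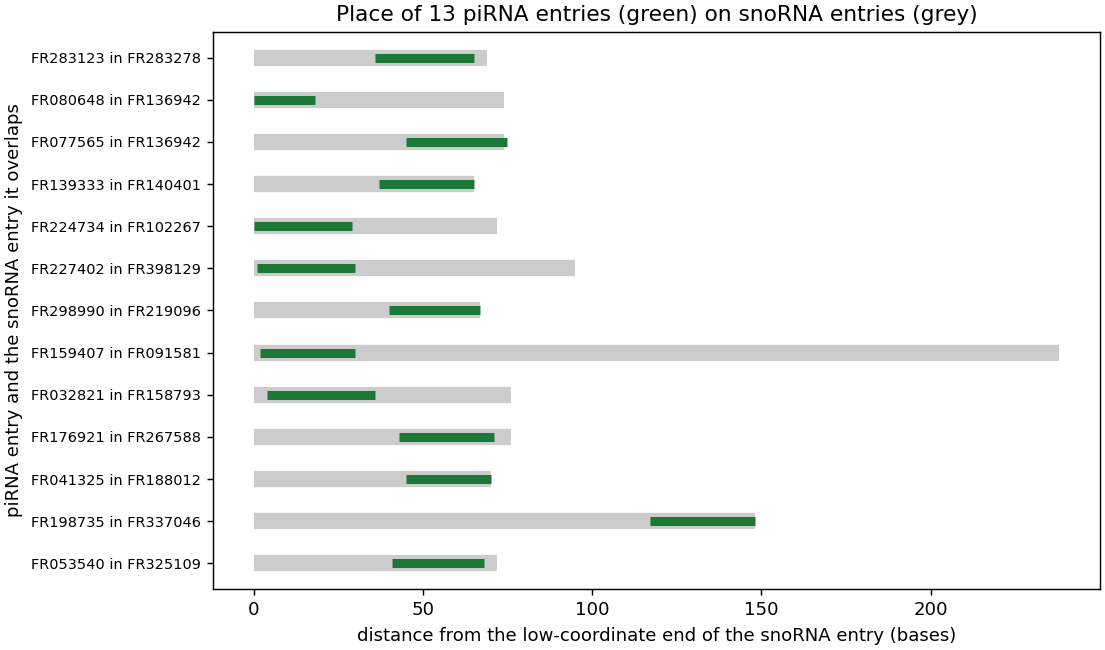
Place of the 13 snoRNA-overlapping piRNA entries (green) on the snoRNA entry they overlap (grey), as distance in bases from the snoRNA entry's low-coordinate end, ordered by summed count of the piRNA entry. Each green bar comes within 5 bases of an end of its grey bar.

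Counts of a piRNA entry never exceeded those of its snoRNA. In each of the 15 cases where a piRNA entry lies wholly inside another entry (snoRNA, snRNA or rRNA), its count was at most that of the outer entry in all 20 libraries, which gives 300 of 300 values. Over all 121 nested pairs of the table the inner count was at most the outer one in all libraries for 80 pairs, and in 81.2% of the values. Whether the authors' counting assigned a read to both entries is not given in the sources used here. The nested snRNA entries FR249206 and FR297789 had nearly equal counts, 2472 and 2461. Counts of a piRNA entry and its partner may thus share reads. Neither these counts nor the partner changes given below can be taken as independent. Of the 13 snoRNA-overlapping piRNA entries, 6 held over 80% of the partner's count and 7 held under 50%. Where an entry overlapped 2 snoRNA entries, the one with more counts was taken as the partner. FR159407 thus held 25.1% of its partner FR091581, but 86.9% of the other snoRNA entry it overlaps, FR168150.

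FR283123 held 98.6% of the count of FR283278 (144960 of 146945), between 94.1% in hyperplastic 2 and 99.3% in hyperplastic 7. The counts of the 2 entries were thus nearly equal in every library. FR224734 held 94.4% of FR102267, FR227402 (chr5:108333573-108333601) held 91.3% of FR398129, and FR139333 held 90.4% of FR140401. At the other end of the range FR176921 (chr1:162968482-162968509) held 5.45% of the 7796 counts of FR267588, and FR053540 (chr19:8798524-8798550) held 5.85% of FR325109. The 2 entries on FR136942 held 33.1% (FR080648) and 21.0% (FR077565) of its 57431 counts. FR178873 held at most 0.0533% of the rRNA count in any library.

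**Figure D3:**
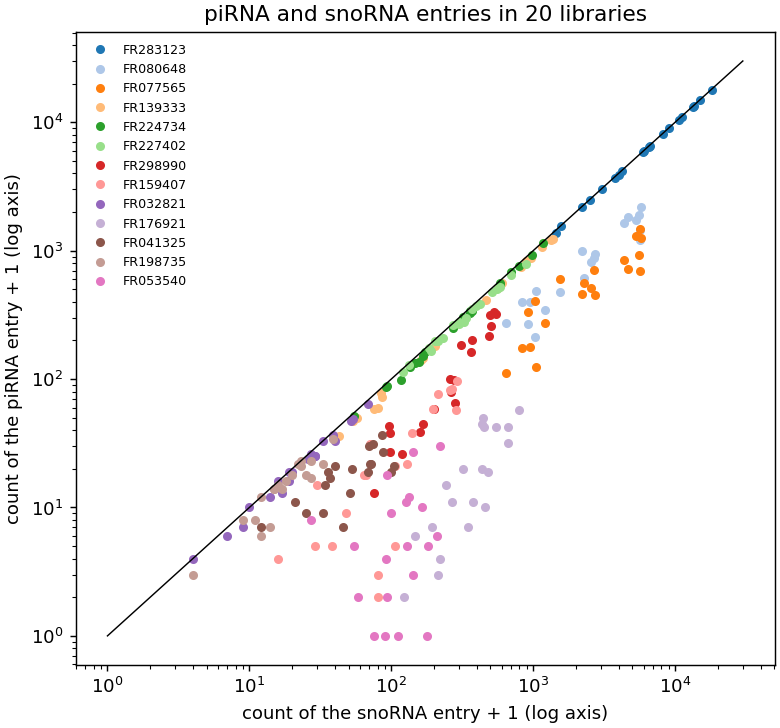
Count of each snoRNA-overlapping piRNA entry plus 1 against the count of its snoRNA entry plus 1, both on log axes, 1 point per library and colour per piRNA entry; the line marks equal counts. FR283123 runs along the line, and FR176921 and FR053540 lie well below it.

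For some pairs the share held by the piRNA entry differed between the groups. FR298990 held 62.7, 63.5, 44.5, 51.7 and 44.1% of FR219096 in the 5 healthy libraries, and 26.3, 26.8, 23.9, 28.6 and 21.2% in the 5 cSCC libraries. The cSCC shares all lay below the healthy ones, while the papilloma shares (16 to 44.2%) reached from below the lowest cSCC library to within the healthy range. FR075111 (chr15:82980194-82980224) held 83.9 to 95.9% of the snRNA entry FR249206 in healthy skin, 90.4 to 95.5% in hyperplastic skin, 55.3 to 97.9% in papillomas and 35.4 to 62.4% in cSCC. Again no cSCC library reached the lowest healthy one. These pairs were picked after their values were seen, and the shares were not tested. The shares of FR283123 ranged over 97.6 to 99.2% in healthy skin and 96.5 to 98.8% in cSCC, and overlapped.

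The piRNA share of all counts was 0.297% ± 0.0626 (SD, n = 5) in healthy skin, 0.184% ± 0.0566 in hyperplastic skin, 0.201% ± 0.0376 in papillomas and 0.176% ± 0.0399 in cSCC. The healthy libraries ranged from 0.245 to 0.405% and the cSCC libraries from 0.141 to 0.243%, so these ranges did not overlap, whereas papillomas reached 0.260%. The hyperplastic libraries reached 0.230%, and hyperplastic 2 was lowest of all with 0.0863%. FR283123 made up 18.7% of the piRNA counts in hyperplastic 2 and 45.8% in healthy 7, and 65.2 to 79.2% in the other 18 libraries. Without the 16 overlapping entries the share was 0.00313% ± 0.00116 in healthy skin and 0.00602% ± 0.00156 in cSCC, the opposite order. The counts themselves were alike, with a mean of 183 per healthy library and 181.2 per cSCC library, while the cSCC libraries were shallower. For these few counts group and depth cannot be told apart.

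**Figure D4:**
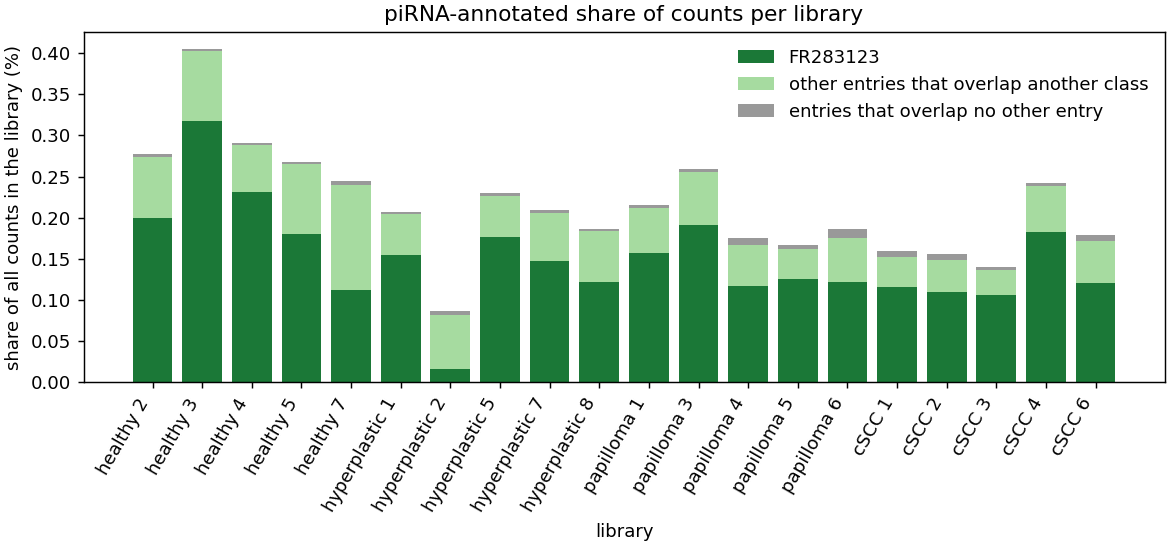
Share of all counts in each library (percent) that fell on piRNA entries, split into FR283123, the other entries that overlap another class and the entries that overlap none. Healthy libraries reach 0.405%, hyperplastic 2 stands at 0.0863%, and the grey part is a thin band in every library.

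Differences between groups were tested with edgeR's quasi-likelihood test on all entries, with Benjamini-Hochberg adjustment over the 1522 that passed the filter on low counts, and an adjusted p of 0.05 as the threshold. Of the 71 piRNA entries 19 passed: all 13 that overlap a snoRNA, 5 that overlap nothing, and FR075111. The other 52 held 1742 counts (0.833%), with at most 77 per entry. In bulk samples fewer cells of a type and less RNA per cell cannot be told apart.

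In hyperplastic against healthy skin 0 of 19 entries passed the edgeR threshold, against 0.329% of all entries tested (5 of 1522). DESeq2 also called 0, and 5 of the 19 had an unadjusted p under 0.05 in edgeR. In papillomas against healthy skin 6 of 19 were lower, against 14.2% of all entries, and 1 was higher, against 22.3%. The cSCC libraries gave 5 lower than healthy skin, against 19.6% of all entries, and 1 higher, against 24.8%. The entries called higher, FR326659 in papillomas and FR045070 in cSCC, passed the filter on low counts through no healthy library. With library totals in place of TMM the cSCC split became 4 lower and 2 higher. The share of all entries called with DESeq2 or another scaling is not given, here or below. Such counts therefore cannot be set against the edgeR shares. The median log2 change of the 19 was -0.67 in papillomas and -0.84 in cSCC, where all entries tested had 0.25 and 0.28. The snoRNA entries, 226 of which were tested, had 52 lower and 12 higher in papillomas and 48 lower and 22 higher in cSCC. Both comparisons use the same healthy libraries.

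Against hyperplastic skin, papillomas had 4 of 19 entries lower (12.3% of all entries) and 0 higher (16.2%). At an unadjusted p under 0.05 there were 5 in edgeR, and DESeq2 called 5, all lower. With library totals, which shifted the median change of all entries by 0.44, the 4 became 1 lower and 1 higher. The cSCC libraries had 3 lower than hyperplastic skin (20.2% of all entries) and 1 higher (21.7%), which became 6 lower and 1 higher when the scaling came from mature miRNAs alone. Between cSCC and papillomas 1 entry was higher in cSCC (3.22% of all entries) and 0 were lower (1.71%). At an unadjusted p under 0.05 there were 3 in either direction in edgeR. DESeq2 called 1, which need not be the same entry. Across the 4 groups 9 of 19 passed, against 53.9% of all entries tested. In all, 9 of the 19 entries passed in at least 1 pair of groups. Of these 9, 7 overlap a snoRNA, as do 13 of the 19 tested. Both tallies of 9 include FR045070 and FR326659, which passed the filter on low counts through no healthy library. The share of all entries that passed in at least 1 pair was not counted.

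FR139333 had the lowest adjusted p of the piRNA entries across the 4 groups (8.4e-07, edgeR's quasi-likelihood test with Benjamini-Hochberg adjustment). It was at 147, 160, 115, 218 and 242 CPM in healthy skin and at 49.0, 61.9, 73.8, 140 and 140 CPM in hyperplastic skin. It was at 40.2, 39.8, 19.2, 20.9 and 21.2 CPM in papillomas and at 15.8, 14.8, 21.4, 43.6 and 24.8 CPM in cSCC. All 10 tumour libraries were below all 10 libraries of the other groups. The log2 change against healthy skin was -2.63 (SE 0.37) in papillomas and -2.87 (SE 0.38) in cSCC, with edgeR adjusted p of 4.2e-05 and 2.3e-06. Its snoRNA, FR140401, changed by -2.58 and -2.76. Against hyperplastic skin FR139333 changed by -1.71 (SE 0.36) in papillomas and -1.95 (SE 0.37) in cSCC. With the replicate number as a block the papilloma value became -1.26 and missed the threshold (edgeR adjusted p = 0.0819).

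FR298990 was at 55.6, 61.4, 36.4, 45.7 and 42.9 CPM in healthy skin and at 12.2, 8.37, 10.6, 17.6 and 10.5 CPM in cSCC. In papillomas it was at 7.25 to 21.3 CPM and in hyperplastic skin at 17.5 to 41.9 CPM. The healthy libraries lay above all tumour libraries. It fell by a log2 change of -1.77 (SE 0.32) in papillomas and -2.03 (SE 0.33) in cSCC against healthy skin, with edgeR adjusted p of 0.00036 and 3.2e-05. The snoRNA that contains it, FR219096, changed by -0.89 and -0.96, and whether the 2 entries differ in their change was not tested. The drop from hyperplastic skin to papillomas (-0.93, SE 0.32, edgeR adjusted p = 0.0301) missed the threshold without hyperplastic 7 (0.149), hyperplastic 8 (0.0965), papilloma 5 (0.0672) or papilloma 6 (0.059). It also missed it with library totals (-0.44, 0.249), with a replicate block (-0.74, 0.257) and when only the 2 groups were fitted (-0.98, 0.0512).

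FR224734 was at 90.9, 107, 76.8, 163 and 229 CPM in healthy skin and at 35.8, 40.9, 33.8, 28.5 and 30.8 CPM in papillomas, with no overlap. The cSCC libraries were at 36.5, 39.6, 37.8, 76.7 and 36.6 CPM, and the highest of these, cSCC 4, came just below the lowest healthy one. The log2 changes against healthy skin were -1.97 (SE 0.35) in papillomas and -1.55 (SE 0.35) in cSCC, with edgeR adjusted p of 0.00032 and 0.0011, and those of its snoRNA FR102267 were -1.91 and -1.48. Against hyperplastic skin papillomas were lower by -1.17 (SE 0.35, edgeR adjusted p = 0.0153). That call was lost with library totals (-0.64, 0.121), with a 50 CPM filter (-0.83, 0.0558) and with a replicate block (-0.61, 0.304). It was also lost without hyperplastic 7 (0.0566) or hyperplastic 8 (0.0759).

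FR080648 and FR077565, the 2 ends of FR136942, did not pass in the same comparisons. FR080648 was at 277, 356, 186, 215 and 344 CPM in healthy skin and 94.2, 85.7, 58.9, 147 and 166 CPM in cSCC, again with no overlap. It changed by -1.32 (SE 0.31) in cSCC (edgeR adjusted p = 0.0014) and by -0.67 (SE 0.30) in papillomas (0.082). FR077565 changed by -1.12 (SE 0.34) in papillomas (edgeR adjusted p = 0.0147) and by -0.72 (SE 0.34) in cSCC (0.0852). The papilloma call of FR077565 was lost with library totals in place of TMM (-0.68, 0.0903) and with a replicate block (-0.88, 0.154). The whole snoRNA FR136942 was lower in both, by -0.996 and -1.24. The difference between the ends was not tested. FR080648 was also lower in cSCC than in hyperplastic skin (-0.99, SE 0.30, edgeR adjusted p = 0.0109). This call was lost with library totals (-0.74, 0.0566), a 50 CPM filter (-0.54, 0.112) or a replicate block (-1.02, 0.0646), and without cSCC 1 (0.055).

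FR159407 (chr2:144091717-144091744) had the largest fall from healthy skin to papillomas. Its counts were 20 to 95 in the healthy libraries and 1 to 8 in the papilloma libraries, which is 4.52 to 18.9 CPM against 0.273 to 2.32 CPM. The log2 change was -3.21 (SE 0.64, edgeR adjusted p = 0.00069), and the ranges did not overlap. The 2 snoRNA entries it overlaps, FR091581 and FR168150, changed by -1.33 and -2.57 in that comparison. In cSCC FR159407 was at 1.29 to 9.28 CPM (-1.26, SE 0.55, adjusted p = 0.0647 in edgeR). Hyperplastic skin was at 0.379 to 10.9 CPM, and its lowest library, hyperplastic 8, lay within the papilloma range. Against hyperplastic skin papillomas were lower by -2.08 (SE 0.64, edgeR adjusted p = 0.0173), and this was lost with library totals (-1.65, 0.0561) and without hyperplastic 7 (0.067). FR176921 was at 2.03 to 11.2 CPM in healthy skin, 0.393 to 3.82 CPM in papillomas and 0.644 to 5.57 CPM in cSCC, with overlapping ranges. It was called in both comparisons with healthy skin (-1.72, SE 0.54, and -1.36, SE 0.53, edgeR adjusted p of 0.0178 and 0.0376). The papilloma call was lost without healthy 7 (0.0504) and with a replicate block (-1.67, 0.073). The cSCC call was lost without healthy 3 (0.0583), healthy 7 (0.101), cSCC 1 (0.0906) or cSCC 6 (0.0573). It was also lost with library totals (-1.21, 0.0579) and with a replicate block (-1.27, 0.144). The snoRNA of FR176921, FR267588, passed in neither comparison (-0.62 and -0.20, edgeR adjusted p of 0.0767 and 0.557).

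The most abundant entry, FR283123, did not pass in any comparison. It was at 2227, 3471, 2476, 2360 and 1163 CPM in healthy skin and at 1517, 152, 1871, 1949 and 1702 CPM in hyperplastic skin. In papillomas it was at 1321, 1793, 855, 1066 and 939 CPM, and in cSCC at 1074, 977, 1153, 1988 and 1034 CPM. Healthy 7 lay within the range of the tumours, and hyperplastic 2 lay below every other library. The log2 changes against healthy skin were -0.70 (SE 0.42) in hyperplastic skin, -0.97 (SE 0.42) in papillomas and -0.91 (SE 0.42) in cSCC, with edgeR adjusted p of 0.491, 0.0688 and 0.0783. Both tumour values lay close to the threshold. The papilloma call was made when any 1 of 10 libraries was left out (healthy 7, hyperplastic 2, 5, 7 or 8, papilloma 3, or cSCC 2, 3, 4 or 6), with edgeR adjusted p of 0.0151 to 0.0485, and in 5 of 9 other settings (0.0196 to 0.245 over the 9, edgeR or DESeq2). The cSCC call was made without healthy 7 (0.0441), hyperplastic 2 (0.015) or cSCC 4 (0.0237), and in 4 of the 9 other settings (0.0234 to 0.321). Without hyperplastic 2 the hyperplastic value became -0.41 (0.738).

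FR227402 (56.7 CPM ± 12.3 in papillomas against 90.1 ± 40.2 in healthy skin, SD, n = 5) had an edgeR adjusted p of 0.0715 in that comparison. FR075111 had a log2 change of -0.84 (SE 0.50) in cSCC against healthy skin (edgeR adjusted p = 0.178), with 5.47 to 18.9 CPM against 10.1 to 37.7. The remaining tested snoRNA-overlapping entries, FR032821, FR041325, FR198735 and FR053540, passed in no comparison. FR041325 was at 3.61 to 4.38 CPM on average in all 4 groups.

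**Figure D5:**
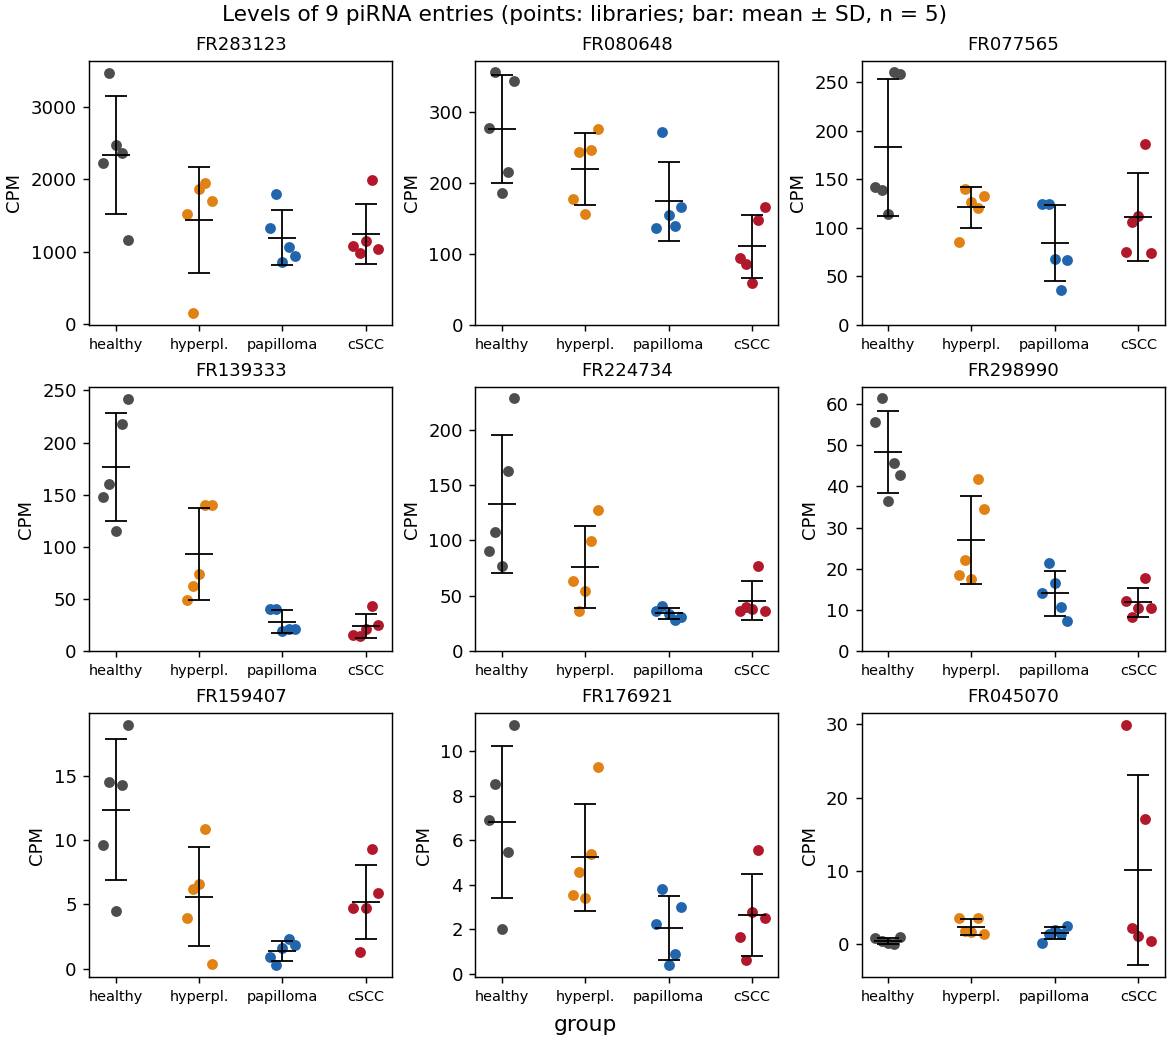
Levels in CPM (linear axes, each with its own scale) of 8 snoRNA-overlapping piRNA entries and of FR045070, which overlaps none; points are libraries, bars the mean ± SD of 5. FR139333 is highest in healthy skin and lowest in both tumour groups, while the mean of FR045070 in cSCC is drawn up by 2 libraries.

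Of the entries that overlap nothing, 2 passed, both upward and both at low counts. FR045070 (chr4:93973053-93973078) had 5, 2, 1, 0 and 5 counts in healthy skin, 19, 16, 9, 27 and 7 in hyperplastic skin, 1, 5, 5, 5 and 4 in papillomas, and 108, 7, 4, 55 and 1 in cSCC. Most of its cSCC counts came from cSCC 1 and cSCC 4, and the other 3 cSCC libraries lay within the range of the other groups. The edgeR log2 change of cSCC was 4.30 (SE 0.86, adjusted p = 0.00033) against healthy skin, 2.10 (SE 0.72, 0.0216) against hyperplastic skin and 2.88 (SE 0.82, 0.0377) against papillomas. The hyperplastic comparison lost its call without hyperplastic 2 (0.0507), cSCC 1 (0.158) or cSCC 4 (0.0576), or with a replicate block (1.73, 0.2). The papilloma comparison lost it without papilloma 1 (0.0728), papilloma 3 (0.0623), papilloma 5 (0.0552), cSCC 1 (0.155) or cSCC 4 (0.082). The papilloma call was also lost with library totals (2.63, 0.0505) and with a replicate block. FR045070 passed the filter on low counts through 7 libraries, 2 hyperplastic, 2 papilloma and 3 cSCC, and none of them healthy. The filter itself thus favoured a higher value than in healthy skin, and the change against healthy skin is given as a description.

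FR326659 (chr5:113772054-113772082) had 1, 3, 0, 1 and 2 counts in healthy skin and 2, 6, 5, 8 and 6 in papillomas, whose libraries were shallower. It passed the filter on low counts only through 5 tumour libraries (papilloma 4, 5 and 6, and cSCC 2 and 6), those where it is high, so the filter itself favoured a higher value there. The log2 change was 2.69 (SE 0.87, edgeR adjusted p = 0.0191), given as a description. It was lost without healthy 2, 4 or 5 or papilloma 5 or 6 (adjusted p of 0.0509 to 0.0632), and with a replicate block (2.47, 0.0956). FR168761 on mt-Co1, the most abundant entry with no overlap in the table (1473 counts), was at 9.71 to 34.5 CPM in healthy skin and 9.12 to 11.95 CPM in cSCC and passed in no comparison (-0.78, SE 0.38, edgeR adjusted p = 0.094 for cSCC against healthy skin). FR146763 and FR207821, the other entries of this kind that were tested, passed in none either.

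The 53 entries with fewer than 100 counts held 1814 counts in all, and 46.5% of their values were 0. A median entry of this kind was detected in 10 of the 20 libraries, and the least detected in 5. FR047615 had 39 of its 68 counts in healthy 5. FR024362 and FR165299 had totals of 35, the median of all piRNA entries, and FR059695, FR192391, FR199146, FR214848, FR258104 and FR372722 had the lowest total of 21. The sum over these 53 entries was 48 to 168 counts per library and did not follow depth: papilloma 6 had 119 among 1270588 counts and hyperplastic 7 had 84 among 10117810. As a share of all counts it was 0.00118% ± 0.000249 in healthy skin and 0.00448% ± 0.00308 in papillomas (SD, n = 5). The groups also differ in depth, so group and depth cannot be told apart here.

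Some of the low entries lie close together. Among those that overlap nothing, 12 fall into 4 groups whose members lie within 20 kb of the next. The largest has 5 entries over 14275 bases (chr4:61884722-61898996) with 180 counts in all, and the next has 3 entries over 5690 bases (chr7:80958986-80964675) with 94 counts. FR326659 and FR024362 lie within 6832 bases on chromosome 5, and FR117580 and FR335365 lie within 859 bases on chromosome 6. These 12 entries held 433 counts together, and apart from FR326659 none passed the filter on low counts, so the others were not tested.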

How the data were processed

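The authors deposited raw, whole-number read counts per small RNA entry and library. Per the labels' protocols, total RNA was extracted with Qiagen miRNeasy, and libraries were made with the NEBNext small RNA set for SOLiD and size-selected on gels. The build was mm9, per the submitters' processing notes. Which aligner and counting program were used, and how reads with several matches were handled, is not given in the sources used here. The piRNA entries were taken by the type column of the table, and all columns were matched to samples by title.

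Entries were tested in edgeR 4.0.16 (R 4.3.3, limma 3.58.1) after filterByExpr by group (minimum count 10, minimum total 15), with TMM factors and 1 model over the 4 groups of 5, giving 6 pairwise comparisons and 1 test across the groups, two-sided. SE were derived from the F statistic. The fit was also run on counts simulated from means and dispersions estimated here, which cannot show that it suits the real libraries. Overlap meant at least 1 shared base on either strand. Alternatives were DESeq2 1.42.0, 3 other scalings, no filter or 50 CPM, a replicate block, fewer entry classes, 2-group fits and each library left out. Named entries are the 10 highest by count, up to 12 that overlap tRNA or snoRNA entries, the 3 largest changes each way among those called, the 3 lowest p across groups, and the lowest and median entries by count; FR053540, FR075111, the low entries beside others and FR047615 were added after their values were seen. The members and lists were chosen with earlier results of these data known. Mitochondrial sequences came from GENCODE transcripts.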

Additional observations from a re-analysis of the deposited data

Results flagged for a closer look

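Levels of the 19 tested piRNA entries and summary shares were examined, each in 4 groups of 5, which gave 84 group values. In 8 of these 84, 1 library stood apart from the other 4 by a gap of more than 0.71 of the group's range. Chance alone gives about 1 in 20 for independent, normally distributed values. Some values here depend on each other, such as the level of FR283123 and its share of piRNA counts. Whether 8 of 84 exceeds chance was therefore not tested. In hyperplastic 2, FR283123 was at 152 CPM, its share of piRNA counts was 18.7% and FR198735 was at 0.667 CPM. In cSCC 4, FR283123 was at 1988 CPM and FR224734 at 76.7 CPM. FR080648 was high in papilloma 3 (272 CPM), FR041325 was high in hyperplastic 8 (6.82 CPM) and FR198735 was low in papilloma 1 (0.444 CPM). The depth of hyperplastic 2, 8442015 counts, was within the range of its group.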

How the results depend on the processing

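The count of called piRNA entries depended on the filter on low counts. With no filter all 71 piRNA entries were tested, not 19. The share of all entries called is not given for the alternatives below. Their counts therefore cannot be set against the shares given above. Without a filter 14 were called in papillomas against healthy skin (5 higher, 9 lower), 17 in cSCC against healthy skin (10 higher, 7 lower), 9 in papillomas against hyperplastic skin, 14 in cSCC against hyperplastic skin and 22 across the 4 groups; with 50 CPM, which left 6 piRNA entries, these were 3, 3, 1, 1 and 2, and 0 for cSCC against papillomas. Without the overlapping entries they were 1, 1, 0, 1 and 2. Scaling from mature miRNAs gave 10 in cSCC against healthy skin and 7 against hyperplastic skin, as did a fit of piRNA and miRNA entries alone, which gave 2 for cSCC against papillomas. DESeq2 called 12 in cSCC against healthy skin. Library totals gave 2 in papillomas against hyperplastic skin and 0 in cSCC against papillomas, where the fit of only those 2 groups also gave 0. With library totals the median change of all entries shifted by 0.45 in papillomas against healthy skin. In every alternative 0 were called in hyperplastic against healthy skin.

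The replicate block gave 4 in papillomas against healthy skin, 1 in papillomas and 1 in cSCC against hyperplastic skin; it changed no other count by over 1.5 times. Under it FR077565, FR176921 and FR326659 were not called in papillomas, nor FR176921 in cSCC, against healthy skin. FR045070 was not called in cSCC against papillomas, so the 1 call made there under the block was of another entry. Against hyperplastic skin the papilloma calls of FR139333, FR224734 and FR298990 were lost. The cSCC calls of FR080648, FR298990 (edgeR adjusted p = 0.097) and FR045070 against hyperplastic skin were lost too. The 17 pairs of libraries with the same number had correlations of -0.155 to 0.221, and 3 were over 0.1. Among the 133 pairs with different numbers 28 were over 0.1. Such correlations cannot show whether equal numbers mark the same mouse, so it is not known whether the samples are paired.

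Leaving out 1 library gave 6 to 12 in papillomas against healthy skin (11 or 12 without hyperplastic 5, 7 or 8, papilloma 1 or 3, or cSCC 2, 3, 4 or 6), 6 to 13 in cSCC against healthy skin (10 without healthy 4, 13 without cSCC 4), 1 to 6 in papillomas against hyperplastic skin (1 without hyperplastic 7, 2 without hyperplastic 8), 3 to 7 in cSCC against hyperplastic skin (7 without cSCC 4) and 0 to 2 in cSCC against papillomas (0 without papilloma 1, 3 or 5 or cSCC 1 or 4, 2 without hyperplastic 8 or cSCC 2). The filter was applied anew in each of these fits, so the number of piRNA entries tested could differ from 19. FR077565 left the calls across groups without healthy 5 or 7, FR176921 without healthy 7, and FR326659 in 15 of 20 cases.

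FR283123 turned sign, uncalled, in papillomas against hyperplastic skin with library totals (0.21) and 50 CPM (0.0291), in cSCC against hyperplastic skin with the same settings (0.0459 and 0.25), and in cSCC against papillomas with miRNA scaling (-0.0483), library totals (-0.16) and without cSCC 4 (-0.12, range -0.12 to 0.41). Without overlapping entries the piRNA share was 0.00313, 0.00318, 0.00663 and 0.00602% in healthy, hyperplastic, papilloma and cSCC libraries. For these few counts group and depth cannot be told apart. The top entry's share was then 48.2% in healthy skin, 31.1% in papillomas and 18.7% in cSCC. With all piRNA entries the share per mature miRNA count was 0.441% in healthy, 0.303% in hyperplastic, 0.290% in papilloma and 0.228% in cSCC libraries. Hyperplastic skin thus lay above papillomas, whereas by share of all counts it lay below them (0.184 and 0.201%). Except for the effects of fewer entries or libraries, the cause was not tested. The same-strand overlap was not run, since the table holds no strand. Most entries below 100 counts could not be tested.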
